A study of Homo sapiens with 6 samples.

Results

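The polyamine genes and antizymes described here are 10 of the 20042 genes in the count table: OAZ1, OAZ2, AZIN1, ODC1, AMD1, SRM, SMS, SAT1, SMOX and PAOX. They were found by matching Ensembl identifiers to gene symbols, and all 10 had a row. The set was chosen by function with the difference between the groups already in view. That difference is therefore given for these genes as a description, without a p-value. The counts come from bulk RNA sequencing of total RNA from MDA-MB-231, a human breast cancer cell line of mesenchymal character, in 6 cultures. In 3 cultures the cells, of genotype WT per the labels, received a control siRNA (siCTRL). In the other 3 the cells received siRNA-1, a short RNA duplex directed against ERBBride, and the labels call these cells ERBBride knock down. The groups share the cell line, and a single targeting siRNA was used. The cultures are labelled as biological replicates, but nothing in the labels says how far they were kept apart, and the p-values cover no more than the spread among these 6 libraries.

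Polyamines (putrescine, spermidine and spermine) are small positively charged molecules that bind nucleic acids and are needed for translation and growth. Ornithine decarboxylase, the product of ODC1, makes putrescine, and spermidine synthase (SRM) and spermine synthase (SMS) extend it with aminopropyl groups that the enzyme encoded by AMD1 supplies. Antizymes (OAZ1, OAZ2) bind ornithine decarboxylase, send it to the proteasome without ubiquitin and restrain polyamine uptake, while the antizyme inhibitor AZIN1, an inactive relative of the decarboxylase, captures antizyme. SAT1 acetylates spermidine and spermine for export or oxidation by PAOX, and SMOX oxidises spermine directly. Tumour cells often keep a high polyamine turnover.

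Levels are CPM, counts scaled to a common library size and normalised by TMM, edgeR's trimmed-mean method, and differences compare siRNA-1 with siCTRL on the log2 scale with the SE of the fit. Library totals ranged from 12813706 to 15014434 counts, and 3 counts corresponded to at most 0.234 CPM, a limit that covers counting error only. ERBBride had no row by that name, so its knockdown was not analysed here. Of the markers of the line, VIM was at 2652 ± 77.8 CPM in siCTRL and 1676 ± 28.9 CPM in siRNA-1 (SD, n = 3). The summed level of all 6 mesenchymal markers ranged from 6929 to 7256 CPM in the control libraries against 3546 to 3675 CPM in the siRNA-1 libraries, with 5 of the 6 lower. The exception was SPARC, which was higher but had only 54 counts over all libraries. In the luminal list the hormone receptor genes ESR1 and PGR had 6 and 0 counts over all libraries, while the keratin genes KRT8 and KRT18 were abundant, and the list summed to 1007 to 1043 CPM in siCTRL against 747 to 774 CPM in siRNA-1. The epithelial junction markers, mostly CLDN4, summed to 167 to 180 CPM in siCTRL against 139 to 143 CPM in siRNA-1. Blood, endothelial and fibroblast markers were low apart from CD68: PTPRC had 37 counts over all libraries, and CD3E, CDH5 and DCN had 0. The endothelial markers summed to 15.6 to 17.6 CPM in siCTRL against 8.25 to 10.8 CPM in siRNA-1, and the fibroblast markers to 22.2 to 26.8 CPM against 31.9 to 35.9 CPM. The part of these shifts in the results below was not tested.

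The antizyme side of the pathway was lower in siRNA-1 cells and most of the enzymes were higher. OAZ1 stood apart at 7.72-fold lower, whereas OAZ2, AZIN1 and AMD1 were 1.28-fold to 1.39-fold lower. SAT1 was 3.26-fold higher, and SRM (1.77-fold), ODC1 (1.56-fold), SMOX (1.42-fold) and SMS (1.39-fold) were also higher. PAOX had too few counts to test. All 9 tested genes passed an adjusted p of 0.05 in edgeR (5 higher, 4 lower), in a comparison where 62.5% of the 12440 genes tested did so (31.5% higher and 31.0% lower). The groups of libraries did not overlap at any of the 9, as at 67.6% of all tested genes. The 9 log2 differences ran from -2.95 (OAZ1) to 1.71 (SAT1) and had no common direction. Their median was 0.48, the value of SMS, and that over all tested genes was 0.01. In bulk RNA, fewer cells with a transcript and less of it in each cell cannot be told apart.

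**Figure D1:**
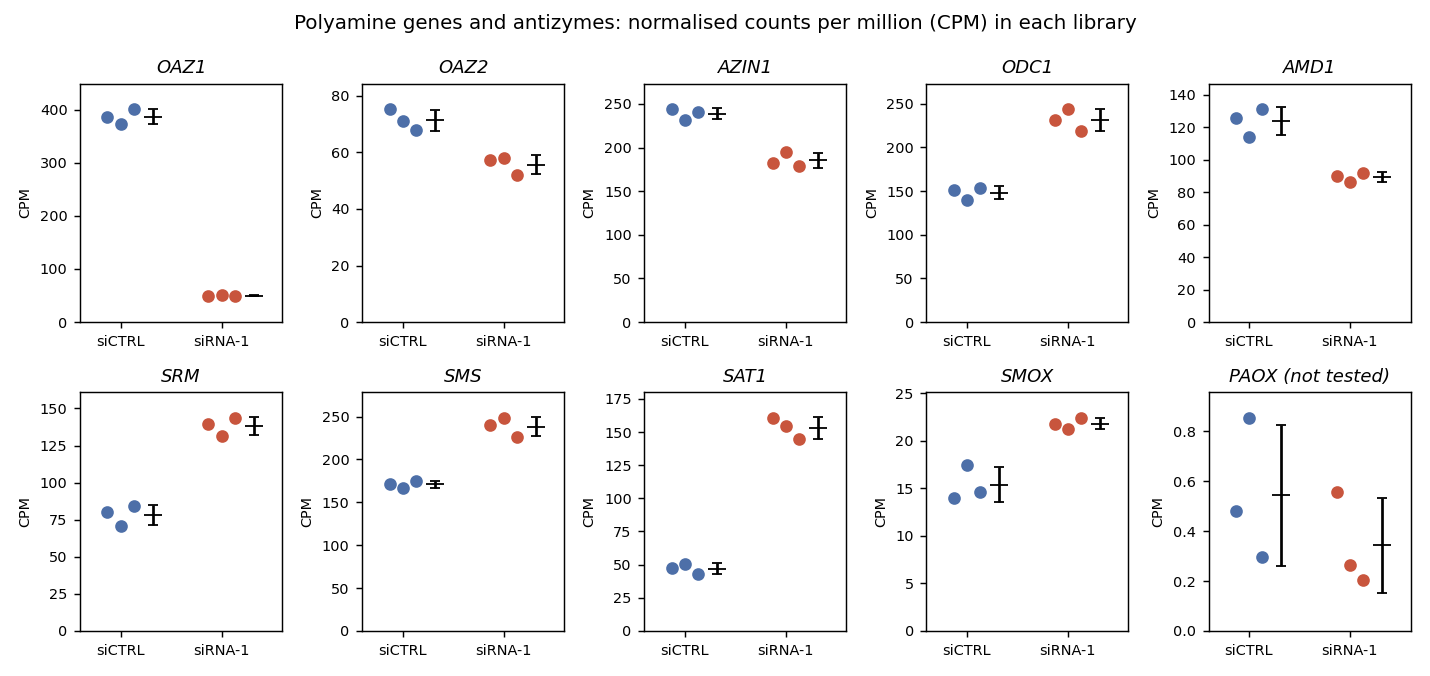
Normalised CPM of each of the 10 genes (y axis, from 0) in the siCTRL (blue) and siRNA-1 (orange) libraries, with 1 point per library and the mean and SD of 3 libraries as black marks. OAZ1 lies at 373 to 401 CPM in siCTRL and 48.8 to 51.5 CPM in siRNA-1, SAT1 shows the opposite direction, and PAOX stays under 1 CPM in every library.

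**Figure D2:**
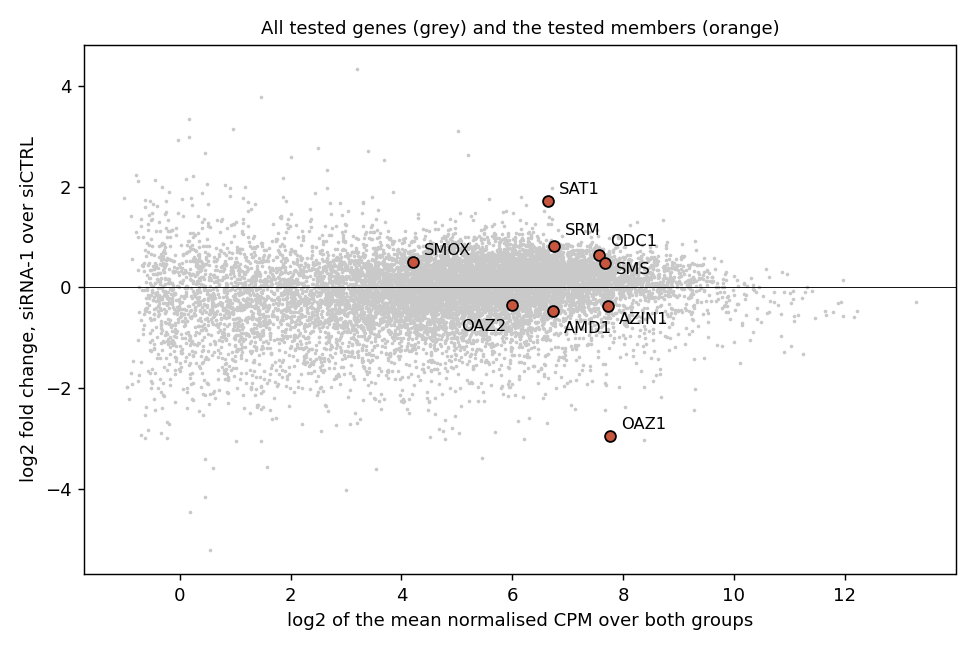
Log2 fold change of siRNA-1 over siCTRL (y axis) against the log2 of the mean normalised CPM (x axis) for the 12440 tested genes (grey) and the 9 tested polyamine genes (orange). OAZ1 lies far below the body of genes of similar level, SAT1 lies above it, and the other 7 lie within it.

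Antizyme transcripts are read through an unusual step: the ribosome must shift forward by 1 base at a stop codon to make the full protein, and polyamines favour that shift. The stretch is shown because it is the feature that OAZ1 and OAZ2 share and through which the protein, unlike the RNA measured here, responds to polyamines. GENCODE release 29 draws the shift as a 1-base gap in the coding region. The gap follows codon 68 in the longest OAZ1 transcript and codon 32 in the longest OAZ2 transcript, counted from the annotated start. In the first pair of lines the capitals mark the codon before the gap. In the last line, from an OAZ1 transcript that keeps the base, they mark the TGA stop codon.
OAZ1 with the gap: cctcggtggtgcTCCgatgcccctcaccca
OAZ2 with the gap: cctctgtggtgcTCCgatgcccctcaccca
OAZ1 with the base kept: ctcggtggtgctccTGAtgcccctcaccc
On GRCh38 the first OAZ1 line covers chr19:2271428-2271458 on the plus strand, and the OAZ2 line covers chr15:64691500-64691530 on the minus strand. The counts are per gene and do not show how much of either transcript was read in the shifted frame.

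OAZ1 (ENSG00000104904) encodes the most widely expressed antizyme and occupies positions 2269509 to 2273490 of chromosome 19 (plus strand). It was at 387, 373 and 401 CPM in siCTRL 1 to 3. The siRNA-1 replicates 1 to 3 were at 49.9, 51.5 and 48.8 CPM. The lowest control thus lay far above the highest siRNA-1 library, and the spread within each group was small beside the gap. The raw counts behind these values were 4802 to 5657 in siCTRL and 715 to 778 in siRNA-1. The log2 difference was -2.95 (SE 0.058), the 18th lowest of the 12440 tested genes. Over 13 other settings, including each library left out, it stayed between -2.99 and -2.91. Exons of other genes cover 6.40% of the OAZ1 exonic bases on the same strand (AC005258.1) and 6.87% on the other strand (JSRP1). The sources used here do not say whether the counting used strand.

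The genes around OAZ1 did not share its direction. By a rule added after seeing the data, all tested genes within 50 kb were taken, and all 5 were higher in siRNA-1 cells. Over all tested genes, 62.5% passed an adjusted p of 0.05 in edgeR, and 31.5% did so as higher. Why these 5 genes rose was not tested. DOT1L, a histone methyltransferase gene, rose by 1.51 on the log2 scale (SE 0.086, adjusted p = 4.8e-08, edgeR). LSM7 (0.62, adjusted p = 0.000502) and SF3A2 (0.36, adjusted p = 0.00239), both of the splicing machinery, rose as well. PLEKHJ1 (0.49, adjusted p = 0.000632) and AMH (0.71, adjusted p = 0.0241) were the others.

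The 3′ untranslated region (UTR) of OAZ1 carries the 7 bases GCTCACT, shown here because an earlier pass over these data picked them as the sequence most enriched among the genes with large falls. OAZ1 is one of those genes, so the match describes it and supports nothing. Capitals mark the match.
OAZ1 3′ UTR: gtgcaaataaacGCTCACTccgaattagcg
OAZ2 coding region: aaggacgagaaGCTCACTgtgacccaggac
The OAZ1 site (chr19:2273218-2273247, plus strand) lies 122 bases after the stop codon of the longest OAZ1 transcript, and the OAZ2 match lies in the coding region. The OAZ2 stretch shown crosses an exon junction. Taking the transcript with the longest 3′ UTR of each gene, in the sense strand only, 2335 of 12275 tested genes carried the sequence (19.0%). OAZ1 was the 1 of the 9 tested polyamine genes with a match in the 3′ UTR. Of the 38 other pathway genes tested, 7 had one: AHCY, MTR, EIF5A2, SLC12A8 and SLC47A1, which all fell, and MRI1 and ELAVL1, which missed the threshold. Of all 2335 genes with the sequence, 48.5% fell and 18.9% rose. Without it, 27.0% of genes fell and 34.6% rose. The sequence was picked from the falls in these same data, so these shares are descriptions and set no pattern of the pathway. The sources used here do not give the sequence of siRNA-1, and whether it pairs with these bases was not tested.

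**Figure D3:**
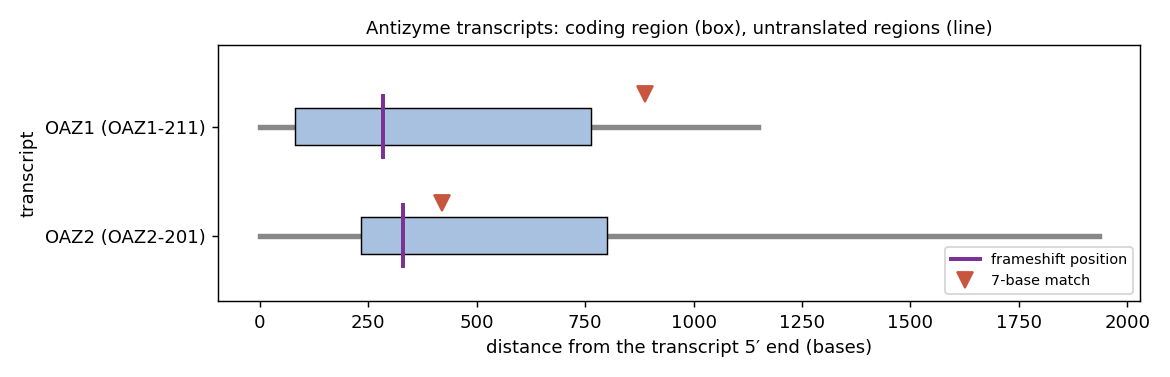
Maps of the longest annotated OAZ1 and OAZ2 transcripts by distance from the 5′ end in bases, with the coding region as a box, the frameshift position as a purple line and the 7-base match as an orange triangle. The match lies past the coding region in OAZ1, at base 888 of 1148, and inside it in OAZ2, at base 419 of 1934.

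OAZ2 (ENSG00000180304), the second ubiquitous antizyme gene, lies on the minus strand of chromosome 15 from 64687573 to 64703281. It was at 75.3, 71.1 and 67.9 CPM in siCTRL and at 57.3, 57.9 and 51.9 CPM in siRNA-1. All siRNA-1 libraries were lower, but the gap between the nearest libraries of the groups was only a little wider than the range within a group. The log2 difference was -0.36 (SE 0.068). AZIN1 (ENSG00000155096), whose product frees ornithine decarboxylase from antizyme, was at 244, 232 and 241 CPM in siCTRL. In siRNA-1 it was at 182, 195 and 179 CPM, again below every control, with a log2 difference of -0.37 (SE 0.054). The antisense gene AZIN1-AS1 overlaps 5.35% of its exonic bases. The antizyme inhibitor was thus lower along with both antizymes, though by far less than OAZ1.

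The remaining antizyme genes were tested as pathway genes. AZIN2, the second antizyme inhibitor gene, fell from 14.8 ± 0.779 to 6.95 ± 1.85 CPM (SD, n = 3, log2 fold change -1.10, SE 0.16, adjusted p = 8.5e-05). OAZ3, an antizyme gene known from the testis, had 101 counts over all libraries and missed the threshold (log2 fold change -0.95, SE 0.39, adjusted p = 0.0501). It passed without siRNA-1 replicate 1 (adjusted p = 0.0224), with limma-voom (0.0340) and with DESeq2 size factors (0.0478), within a range of 0.0224 to 0.186 over all settings. Its log2 fold change was -1.38 without siRNA-1 replicate 1 and -0.56 without siRNA-1 replicate 2 (adjusted p = 0.186). Exons of other genes cover 9.15% of OAZ3 on the same strand and 19.8% on the opposite strand.

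ODC1 (ENSG00000115758; chromosome 2, 10439968 to 10448504, minus strand), the decarboxylase that antizyme removes, was at 152, 139 and 154 CPM in siCTRL. It was at 232, 244 and 219 CPM in siRNA-1, above every control. The log2 difference was 0.64 (SE 0.061). These are RNA levels and say nothing of the enzyme itself, whose removal by antizyme takes place after translation.

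Of the aminopropyl donors and synthases, SRM and SMS were higher and AMD1 was lower. SRM (ENSG00000116649; chromosome 1, 11054584 to 11060024, minus strand), which makes spermidine, was at 80.1, 70.7 and 84.1 CPM in siCTRL and at 139, 132 and 144 CPM in siRNA-1 (log2 difference 0.82, SE 0.070). siCTRL 2 was the lowest control by a margin larger than the gap between the other controls. SMS (ENSG00000102172; chromosome X, 21940573 to 21994835, plus strand), which makes spermine, was at 171, 167 and 175 CPM in siCTRL. It was at 240, 248 and 227 CPM in siRNA-1 (log2 difference 0.48, SE 0.055), so that the groups were well separated. AMD1 (ENSG00000123505; chromosome 6, 110874770 to 110895713, plus strand) encodes the enzyme that turns S-adenosylmethionine into the aminopropyl donor. It was at 126, 114 and 131 CPM in siCTRL and at 89.9, 86.1 and 92.0 CPM in siRNA-1, below every control (log2 difference -0.47, SE 0.064). The enzyme that feeds both synthases therefore had the opposite sign to the synthases at the RNA level. GENCODE 29 lists processed pseudogenes of AMD1 and SRM, and reads shared with them are assigned with some uncertainty.

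On the breakdown side, SAT1 showed the second largest difference of the 9 tested genes. SAT1 (ENSG00000130066; chromosome X, 23783173 to 23786226, plus strand), the acetyltransferase that opens polyamine catabolism, was at 47.4, 50.8 and 42.7 CPM in siCTRL. It was at 161, 154 and 145 CPM in siRNA-1. The lowest siRNA-1 library was well above the highest control, and the log2 difference of 1.71 (SE 0.073) was the 44th highest of the 12440 tested genes. SAT1 makes a productive transcript and one with an extra exon that is degraded, and counts per gene do not separate them. SMOX (ENSG00000088826; chromosome 20, 4120980 to 4187747, plus strand), the spermine oxidase gene, was at 14.03, 17.5 and 14.6 CPM in siCTRL and at 21.8, 21.3 and 22.4 CPM in siRNA-1 (log2 difference 0.51, SE 0.10). siCTRL 2 was the highest control and still lay below every siRNA-1 library. PAOX (ENSG00000148832; chromosome 10, 133379234 to 133391694, plus strand), which oxidises acetylated polyamines, had 7, 11 and 4 counts in siCTRL and 8, 4 and 3 counts in siRNA-1, too few to test.

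To compare genes with one another, CPM was divided by the length of the union of annotated exons (CPM per kb). In siCTRL, OAZ1 had the highest level of the 10 genes, at 113 ± 4.10 CPM per kb (SD, n = 3). SMS (79.1 ± 1.92), ODC1 (49.9 ± 2.66), SRM (41.2 ± 3.63) and AZIN1 (37.2 ± 0.967 CPM per kb) followed, and the ranges of SRM and AZIN1 overlapped. SAT1 (18.8 ± 1.62) and AMD1 (17.6 ± 1.24) overlapped too, and OAZ2 (9.31 ± 0.484), SMOX (5.22 ± 0.622) and PAOX (0.239 ± 0.125 CPM per kb) were lowest. In siRNA-1 the order was led by SMS (110 ± 5.09), then ODC1 (77.9 ± 4.23) and SRM (72.8 ± 3.21), whose ranges overlapped, and SAT1 (61.3 ± 3.26 CPM per kb). AZIN1 was at 28.8 ± 1.31, OAZ1 at 14.6 ± 0.402, AMD1 at 12.7 ± 0.426, SMOX at 7.41 ± 0.197, OAZ2 at 7.26 ± 0.427 and PAOX at 0.151 ± 0.0833 CPM per kb. OAZ1 thus left the top of the order for a place below AZIN1, and SAT1 moved from below AZIN1 to just below SRM. With the longest transcript as the length, OAZ1 still led in siCTRL (337 CPM per kb), but in siRNA-1 SAT1 led (144 CPM per kb) and OAZ1 (43.6) lay between ODC1 (87.2) and AZIN1 (39.2 CPM per kb).

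The balance between antizyme transcripts and those of their binding partners was taken as OAZ1 plus OAZ2 over ODC1 plus AZIN1, all per kb. It was 1.38, 1.42 and 1.41 in siCTRL 1 to 3. The siRNA-1 libraries gave 0.207, 0.201 and 0.207. Antizyme transcripts exceeded those of the partners in every control and were well under them in every siRNA-1 library. With the longest transcript as the length the ratio was 3.51 ± 0.0531 in siCTRL and 0.573 ± 0.00977 in siRNA-1 (SD, n = 3), on either side of 1 as before. The ratio of OAZ1 to OAZ2 was 12.1 ± 0.925 in siCTRL and 2.01 ± 0.0780 in siRNA-1, so OAZ1 remained the more abundant of the pair per kb. SAT1 stood at 0.168 ± 0.0204 of OAZ1 in siCTRL and at 4.21 ± 0.191 of it in siRNA-1. These ratios come from the values that chose the genes and are descriptions.

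**Figure D4:**
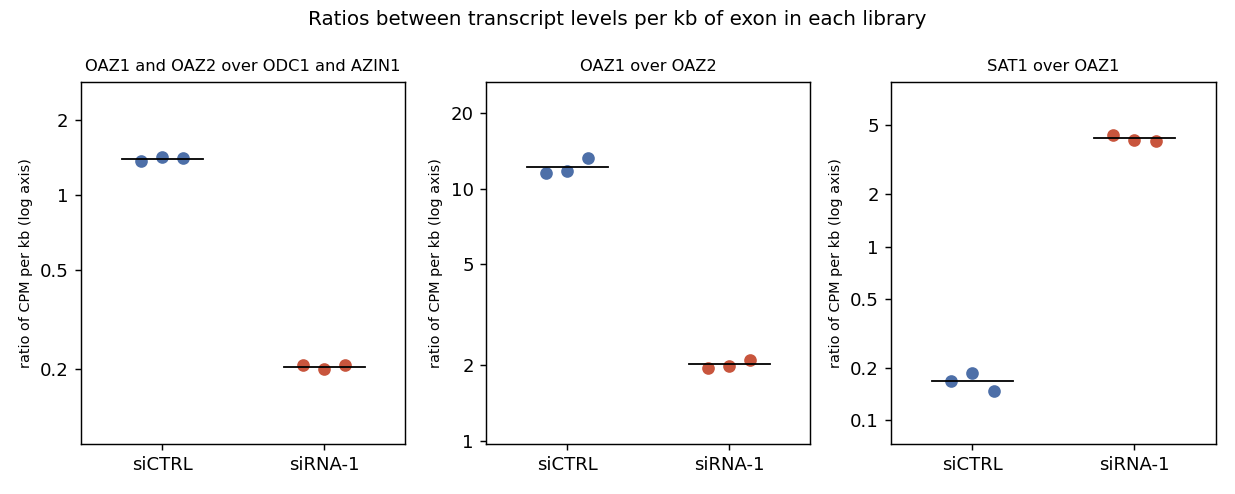
Ratios of CPM per kb of exon (log axis) in each siCTRL (blue) and siRNA-1 (orange) library, with lines at the group means. The ratio of antizymes to their partners lies at 1.38 to 1.42 in siCTRL and 0.201 to 0.207 in siRNA-1, and the ratio of SAT1 to OAZ1 moves the opposite way.

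Beyond these 10 genes, 53 others that supply, use, move or regulate polyamines were listed by role, and 38 had enough counts to test. Of these, 24 changed (63.2%), 10 upwards and 14 downwards, a share close to the 62.5% of all tested genes, so that the list as a whole did not stand out by this count. Their median log2 fold change was -0.13. The paragraphs that follow give the genes by role, with edgeR p-values adjusted over all 12440 genes.

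Spermidine is the substrate for hypusine, a modified lysine found in the translation factor eIF5A. EIF5A was at 422 ± 43.5 CPM in siCTRL and 651 ± 23.8 CPM in siRNA-1 (SD, n = 3), a rise of 0.62 on the log2 scale (SE 0.071, adjusted p = 1.2e-05, edgeR). DOHH, the hydroxylase that completes hypusine, rose as well, with 16.3 ± 1.61 CPM in siCTRL and 23.9 ± 1.17 CPM in siRNA-1 (0.55, SE 0.096, adjusted p = 0.000366). The second eIF5A gene, EIF5A2, went the other way, from 33.7 ± 3.803 to 19.7 ± 0.906 CPM (-0.77 on the log2 scale, SE 0.097, adjusted p = 2.6e-05). GPS2 exons cover 8.56% of EIF5A on the other strand, and GENCODE 29 lists processed pseudogenes of EIF5A. DHPS, which begins the modification, had 4 counts over all libraries. Exons of AC010422.8 cover 38.5% of DHPS on the same strand, and whether reads were lost to that overlap was not tested. The tested genes of this role thus split, with the major eIF5A gene and DOHH higher and EIF5A2 lower.

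Of the 7 tested genes that supply ornithine and arginine, 1 rose and 2 fell (42.9% past the threshold, below the 62.5% of all tested genes), and their median log2 fold change was -0.28. ALDH18A1, which opens the route from glutamate to proline and ornithine, rose from 115 ± 5.04 to 158 ± 8.96 CPM (log2 fold change 0.46, adjusted p = 4.0e-05). The arginine synthesis genes ASS1 (log2 fold change -0.67, adjusted p = 0.00203) and ASL (-0.52, adjusted p = 0.00605) fell. ARG2, the mitochondrial arginase gene that makes ornithine, was at 4.68 ± 1.04 CPM in siCTRL and 3.74 ± 0.826 CPM in siRNA-1 and missed the threshold (adjusted p = 0.236).

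Of the 11 tested genes of the methionine cycle, which makes S-adenosylmethionine, and of methionine salvage, 4 were higher and 4 lower. Past the threshold were 72.7% of the 11, against 62.5% of all tested genes, of which 31.5% rose and 31.0% fell. Changes in both directions were thus shared with the tested genes at large. AHCY, which clears S-adenosylhomocysteine, fell from 145 ± 3.52 to 87.4 ± 3.59 CPM (log2 fold change -0.73, adjusted p = 4.8e-07). Its relatives AHCYL2 (-0.62, adjusted p = 5.6e-05) and AHCYL1 (-0.31, adjusted p = 0.00021) fell as well and are counted among the 4 lower. Whether these relatives act in the cycle was not tested. MTR, the methionine synthase gene, fell from 60.7 ± 3.23 to 42.7 ± 2.67 CPM (adjusted p = 6.4e-05). MTAP, the first enzyme of the salvage of methylthioadenosine, a by-product of both aminopropyl transfers, had 0 counts in all 6 libraries, which allows at most 0.234 CPM. This cell line is known to lack the region with CDKN2A and MTAP. The 4 that rose, named after their values were seen, were the cycle genes MTRR (log2 fold change 0.48, adjusted p = 0.000233) and MAT2B (0.29, adjusted p = 0.000644) and the salvage genes ADI1 (0.48, adjusted p = 0.00041) and APIP (0.33, adjusted p = 0.00571).

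Of the 9 transport genes tested, 4 fell and 0 rose (44.4% past the threshold, against 62.5% of all tested genes, of which 31.0% fell), and their median log2 fold change was -0.13. SLC12A8, reported as a carrier of polyamines and amino acids, fell from 15.7 ± 1.45 to 4.95 ± 0.504 CPM (-1.67 on the log2 scale, SE 0.13, adjusted p = 5.7e-07). SLC3A2, the heavy chain of amino acid exchangers that is also linked to polyamine export, fell from 326 ± 15.4 to 248.6 ± 8.05 CPM (adjusted p = 6.4e-05). SLC47A1 fell by 0.78 on the log2 scale (adjusted p = 0.000176), and SLC22A3, an organic cation carrier, by 0.32 (adjusted p = 0.0117). The SLC22A3 call was lost without siCTRL 1 (adjusted p = 0.0513) or without siRNA-1 replicate 2 (adjusted p = 0.0511), within a range of 0.00122 to 0.0513 over all settings. The ATPase genes linked to polyamine transport, ATP13A2 (log2 fold change 0.05, adjusted p = 0.486) and ATP13A3 (-0.13, adjusted p = 0.0588), named after their values were seen, missed the threshold.

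Of the other breakdown genes, ALDH9A1, an aldehyde dehydrogenase that oxidises the aldehyde formed from putrescine, fell from 139 ± 14.9 to 45.0 ± 0.459 CPM (-1.63 on the log2 scale, SE 0.078, adjusted p = 1.3e-08). SAT2, a relative of SAT1, rose from 30.1 ± 6.43 to 38.5 ± 3.10 CPM (log2 fold change 0.35, adjusted p = 0.0356). Without siCTRL 2, its lowest library, the log2 fold change of SAT2 was 0.17 (adjusted p = 0.038). The call was lost without siRNA-1 replicate 1 (adjusted p = 0.113) or 2 (adjusted p = 0.114) and among genes with a mean of 100 counts (0.0585), within a range of 0.0145 to 0.114. AOC1, which oxidises putrescine outside cells, had 0 counts in all libraries.

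**Figure D5:**
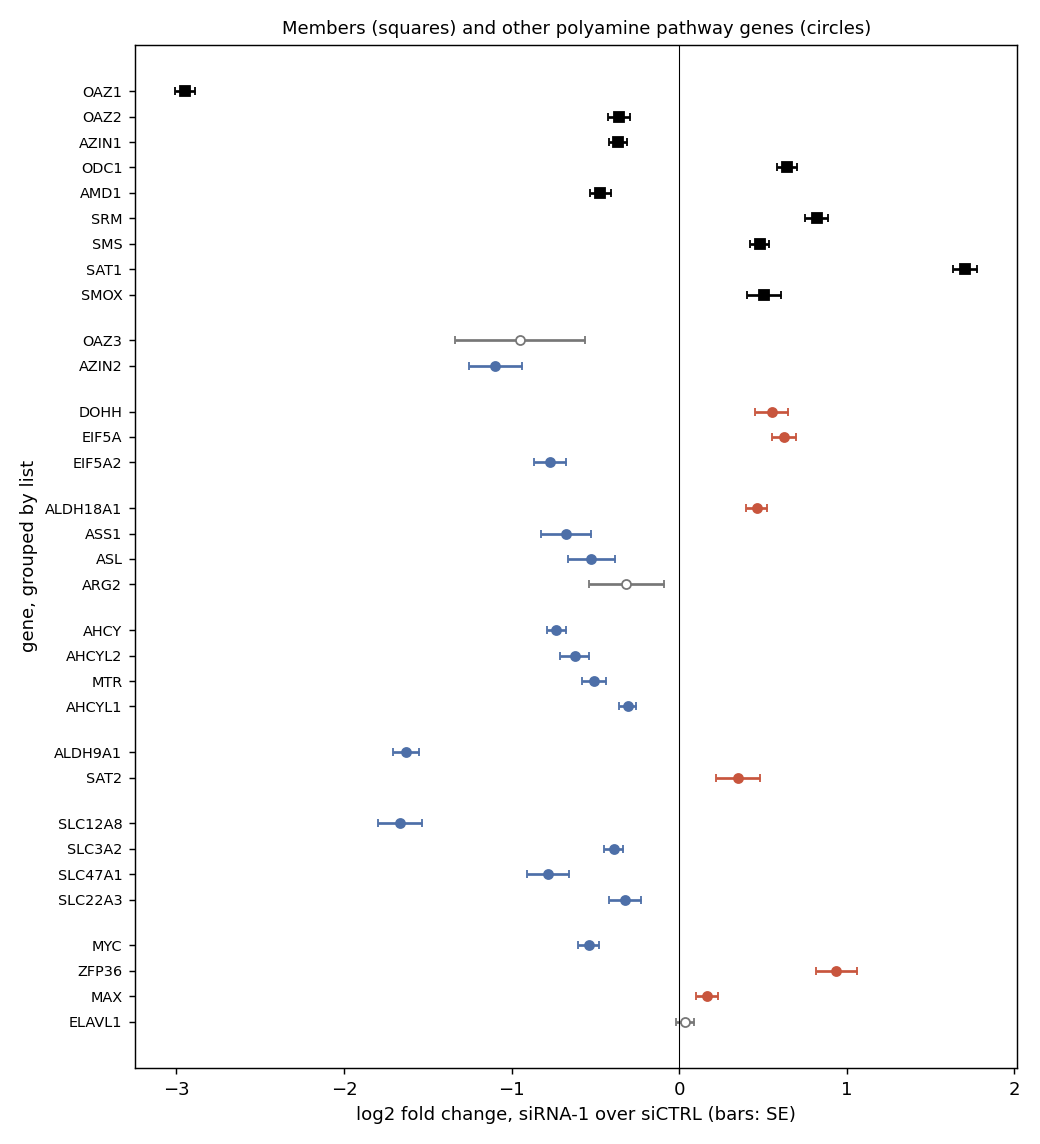
Log2 fold change of siRNA-1 over siCTRL with its SE (x axis) for the 9 tested polyamine genes (black squares) and the named pathway genes (circles), in blocks by role from top to bottom: antizyme family, hypusine, ornithine and arginine supply, methionine cycle, breakdown, transport and ODC1 regulators. Filled orange and blue circles rose and fell at an adjusted p under 0.05, open circles missed the threshold, and OAZ1 and SAT1 lie at -2.95 and 1.71.

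The last role was regulation of ODC1, a textbook target of the transcription factor MYC. MYC fell from 174 ± 9.18 to 120 ± 6.74 CPM (-0.54 on the log2 scale, SE 0.062, adjusted p = 1.3e-05), while ODC1 and SRM were higher. ZFP36, which encodes a protein that destabilises mRNAs, ODC1 among its reported targets, rose from 10.6 ± 1.42 to 20.4 ± 2.27 CPM (0.94, adjusted p = 4.2e-05). MAX, the partner of MYC, rose by 0.17 (adjusted p = 0.0411), a call that was lost with DESeq2 size factors (0.0555), among genes with a mean of 100 counts (0.0910) and in the DESeq2 Wald test (0.0951). It was also lost without any 1 of 5 libraries (all except siCTRL 3), and without siCTRL 2 the log2 fold change of MAX was 0.095 (adjusted p = 0.121, within a range of 0.0123 to 0.121 over all settings). ELAVL1, an RNA-binding protein gene, missed the threshold (log2 fold change 0.03, adjusted p = 0.615).

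MYC and MAX bind the E-box CACGTG, a sequence that reads the same on both strands. RefSeq promoter windows of GRCh38.p14, from 250 bases before to 50 bases after a start site, were matched for 7 of the 10 genes with 10 windows. CACGTG was in 1 of the 2 ODC1 windows, at 2 places of which the one upstream of the start is shown, and in the SRM window, and in none of the windows of OAZ1, OAZ2, AMD1, SMS and SAT1. Of all 35116 windows, 7.26% held it. SMS and SAT1 were also higher without a match, and SMOX, higher as well, had no window. Counted per gene and not per window, 7 of the 45 other pathway genes with a window held CACGTG. Some genes have several windows, so this count cannot be set beside the 7.26% of windows. Of the 7, ALDH18A1, ADI1 and DOHH were higher, ASS1 and EIF5A2 were lower, and MRI1 and ENOPH1 missed the threshold. The stretches are shown for ODC1 and SRM, with the E-box in capitals.
ODC1: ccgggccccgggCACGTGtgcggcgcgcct
SRM: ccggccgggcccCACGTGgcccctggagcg
The ODC1 stretch is chr2:10448024-10448053 and the SRM stretch chr1:11060200-11060229, both on the minus strand. A match is a description of the sequence and not a site of binding in these cells.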

How the data were processed

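The authors deposited raw read counts per Ensembl gene for 6 libraries. The submitters' processing notes name Trimmomatic, STAR, HTSeq and kallisto without versions, and the build hg38. The sources used here do not give the annotation release, strand setting or filters. Libraries were prepared with a NEBNext Ultra RNA kit per the labels.

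All 20042 identifiers were matched to a symbol. Genes were kept by filterByExpr (minimum count 10, minimum total 15), which left 12440 genes and 99.9% of counts. Counts were normalised by TMM (factors 0.972 to 1.02) and tested in R 4.3.3 with edgeR 4.0.16 (quasi-likelihood F test, two-sided, group as the only term, Benjamini-Hochberg adjustment over all tested genes, threshold 0.05). Each SE is the size of the log2 fold change over the square root of F, and edgeR's common coefficient of variation was 0.0656. The steps were also run on simulated counts in which 200 genes were given a change. That is far fewer than the 7772 genes called here, so the run does not show how the fit behaves with changes this widespread. Replicates differed by more than counting noise (chi-square per degree of freedom 2.12 to 11.4). The highest values were those of the pairs with siCTRL 2.

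The genes and lists were chosen with earlier results of these data known. Named genes were the 10 polyamine genes, OAZ3, AZIN2, DHPS, DOHH, EIF5A and EIF5A2, and the 4 tested genes with the smallest p of each other pathway list. Lengths, positions, overlaps and transcripts came from GENCODE 29 (GRCh38), and promoters from RefSeq. Most identifier versions in the count table differ from those of GENCODE 29, so the overlaps the authors' counting met may differ. Alternatives were DESeq2 1.42.0 size factors, no scaling, no filter, a mean of 100 counts, the DESeq2 Wald test, limma-voom (limma 3.58.1), the replicate block, each library left out, a threshold of 0.01 and another gene length.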

Additional observations from a re-analysis of the deposited data

How the results depend on the processing

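All 9 tested polyamine genes kept their direction and passed the threshold under every alternative run. Each of the 117 alternative log2 differences moved by less than 1 SD between replicates. For the runs without 1 library this was nearly fixed in advance, since leaving out 1 of 3 values moves a group mean by less than that SD. These genes were chosen with the difference in view, and the runs reuse the same libraries, so their passing is a description. In the runs at the main threshold, 48.9% (no filter) to 68.7% (without siCTRL 2) of all tested genes passed. Among other pathway genes, 24 changed in the main comparison and 21 to 26 under the alternatives, with 10 (8 to 11) higher and 14 (13 to 17) lower. Across all genes 7772 changed, and 6206 to 8635 under the alternatives. When a library was left out, the pathway count ranged from 21 to 26 and the count over all genes from 6848 to 8635, the highest without siCTRL 2. The 1 reversal was ELAVL1, whose log2 fold change was -0.004 at a mean of 100 counts or more, far from the threshold. With the longest transcript as the length, the ratio of antizymes to their partners was 3.513 in siCTRL and 0.5732 in siRNA-1, against 1.40 and 0.205 with all exons, OAZ1 having 3436 exonic bases and 1148 in its longest transcript. No shared effect of the replicate number was seen: the correlation of the deviations of same-numbered libraries was -0.078 to 0.067. The labels do not say whether same-numbered cultures were run together, and this correlation cannot settle it. With the replicate block, 7535 genes changed, and 24 pathway genes and all 9 polyamine genes passed. Low counts leave PAOX and 15 pathway genes without a test and OAZ3 with a wide error; why those counts were low was not tested.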
